A study of Mus musculus with 15 samples.

Results

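The genes described are 42 genes of the cell division cycle, measured by RNA-seq in macrophages sorted from mouse ear skin 10 days after an ear punch. They were taken by name from the deposited table, which lists 42454 entries, and all 42 were found. Of these, 17 act in or just before S phase, when DNA is copied, 22 act in G2 and mitosis, when chromosomes are condensed and separated, and 3 are D-type cyclins, which act in G1. A gene was tested where its mean over the 15 libraries was at least 100 normalized counts (reads divided by 1 factor per library), and 31 of the 42 passed: 12 S phase genes, 16 mitotic genes and the 3 D-type cyclins. The 11 below it were Ung, Gins2, Cdc6, Ccne1, Ccne2, Ccnb1, Plk1, Cenpe, Cenpf, Kif11 and Cdc20. The nearest genes on either side were Tk1 at 109.9 and Gins2 at 99.97.

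All groups came from CX3CR1-creERT2/gfp R26-tdT/+ mice, in which cells expressing Cx3cr1 carry GFP and keep tdTomato after tamoxifen. The punch followed tamoxifen by 3 weeks. Macrophages were sorted as CD11b+ CD64+ Lin- cells from the punched left ears and the intact right ears of 3 mice. The 5 groups of 3 libraries were interstitial macrophages (GFP- Tomato-) of intact skin (IM) and of punched skin (injIM), resident nerve-associated macrophages (GFP+ Tomato+) of intact skin (sNAM) and of punched skin (injsNAM), and cells of the recruited nerve-associated gate of punched skin (GFP+ Tomato-, recsNAM). The groups follow the library titles. The reporter entry in the sample labels follows the treatment instead, and for injIM and sNAM it differs from the sorting gate. GFP marks cells in which the Cx3cr1 locus is active and tdTomato those in which it was active at the time of tamoxifen, so the gates are drawn on expression of this locus and not on contact with a nerve.

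The 9 libraries of IM, injIM and recsNAM held 20397849 to 23794162 reads, the injsNAM libraries 16889283 to 19520105, and the sNAM libraries 5636251 to 18632984, replicate 2 having the fewest. Of all 8656 genes tested, the sNAM libraries had no read for 11.6%, 25.8% and 3.89%, the injsNAM libraries for 4.26% to 8.79%, and each of the other 9 for at most 0.751%. The macrophage genes Adgre1, Csf1r and Cd68 were high in every library, while Mertk ran from 120 (sNAM replicate 1) to 1386 (injsNAM replicate 2). Summed, 7 macrophage markers gave 163756.5 to 166899 normalized counts in IM and 133459 to 148344 in injIM. The sums were lower in every nerve-associated library: 92534 to 112999 in sNAM, 106472 to 110881 in injsNAM and 119949 to 124166 in recsNAM. Csf1r and Cd68 made most of the sum, and not every marker followed it. Ptprc was 3619 to 4307 in IM and higher in every nerve-associated library, at 5432 to 9795.5 in sNAM. Fcgr1 was 759 to 1348 in IM and 825 to 2517.5 in sNAM, and Itgam 4257 to 5611.5 and 3134 to 6732. Other cell types' markers were also present: 4 dendritic cell genes, mostly Ccr7, summed to 22118 to 43739 in sNAM against 1002 to 1346 in IM, and 6 T and NK cell genes summed to 3029 to 7459 in replicates 1 and 3 of sNAM and injsNAM. Mast cell markers (5 genes) summed to 6734.5 to 9063 across the IM libraries and 3270.6 to 3583 across the injIM libraries, and sNAM replicates 1, 2 and 3 held 2.89, 19067 and 1389.5. Fibroblast markers (5 genes) summed to 4296 to 16737 across the interstitial libraries and to 113 to 862 across the sNAM libraries. In such bulk samples, fewer dividing cells and less of these RNAs per cell cannot be told apart. The p-values treat libraries as independent, although all came from the same 3 mice and the labels do not tie a library to a mouse.

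Passage through the cycle is driven by cyclins bound to their kinases. D-type cyclins, induced by growth factors, lead to release of E2F transcription factors, which switch on the genes that license and copy DNA. Later, B-MYB and FOXM1 act through CHR elements in the promoters of mitotic genes, many of which also hold CCAAT boxes. Most resident tissue macrophages rest outside the cycle, and a few divide to maintain or expand the population in place, while macrophages recruited to wounds descend from blood monocytes.

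The S phase and mitotic genes differed in their promoter letters. RefSeq windows (build GRCm38.p6) of 250 bases before to 50 after the start site were found for 33 of the 42 genes, and were searched on both strands. The CHR, searched as TTTGAA or TTCGAA, was in the windows of 14 of 18 mitotic genes (77.8%) and in 2 of 15 S phase windows, against 19.2% of all promoter windows. An E2F site, searched as TTGGCGC, as the form TTCCCGC, as the form TTCGCGC or as the form TTGCCGC, was in 9 of 15 S phase windows (60.0%) and 3 of 18 mitotic windows, against 9.57% of all. The CCAAT box, searched as CCAAT, was in 88.9% of mitotic windows, 60.0% of S phase windows and 37.4% of all. A match is a description of letters and does not show that a factor binds there. The sequences are the 250 bases before the start site, read 5′ to 3′ on the gene's own strand, for the genes the results turn on: the 2 genes that passed the test, the S phase genes Rrm1 and Mcm6, and 3 mitotic genes of which Mki67 was read in every library and Top2a and Cdk1 were not. The capitals mark the matches on either strand, and the longer runs in Mcm6 are overlapping matches.
Cenpa (chr5:30666636-30666885, + strand, CCAAT box in capitals): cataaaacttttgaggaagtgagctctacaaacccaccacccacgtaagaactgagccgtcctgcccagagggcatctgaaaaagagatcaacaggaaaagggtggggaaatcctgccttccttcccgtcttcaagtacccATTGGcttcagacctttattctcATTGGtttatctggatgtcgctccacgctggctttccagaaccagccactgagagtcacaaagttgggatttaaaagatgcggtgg
Mki67 (chr7:135716380-135716629, - strand, CHR in capitals): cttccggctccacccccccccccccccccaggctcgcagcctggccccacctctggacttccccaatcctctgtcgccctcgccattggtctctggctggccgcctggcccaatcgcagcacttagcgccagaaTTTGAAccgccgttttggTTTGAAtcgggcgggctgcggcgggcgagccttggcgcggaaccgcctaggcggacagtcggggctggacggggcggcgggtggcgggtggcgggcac
Top2a (chr11:99024190-99024439, - strand, CHR in capitals): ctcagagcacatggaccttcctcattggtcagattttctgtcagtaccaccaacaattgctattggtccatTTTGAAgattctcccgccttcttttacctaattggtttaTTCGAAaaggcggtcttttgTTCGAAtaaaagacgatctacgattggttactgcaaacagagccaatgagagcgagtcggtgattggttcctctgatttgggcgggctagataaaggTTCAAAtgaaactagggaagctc
Cdk1 (chr10:69352913-69353162, - strand, CHR in capitals): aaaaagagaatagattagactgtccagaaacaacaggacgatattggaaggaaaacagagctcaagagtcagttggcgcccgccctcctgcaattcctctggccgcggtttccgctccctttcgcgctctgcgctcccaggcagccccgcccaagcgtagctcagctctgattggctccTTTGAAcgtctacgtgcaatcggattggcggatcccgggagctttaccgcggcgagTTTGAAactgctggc
Rrm2 (chr12:24708004-24708253, + strand, E2F in capitals): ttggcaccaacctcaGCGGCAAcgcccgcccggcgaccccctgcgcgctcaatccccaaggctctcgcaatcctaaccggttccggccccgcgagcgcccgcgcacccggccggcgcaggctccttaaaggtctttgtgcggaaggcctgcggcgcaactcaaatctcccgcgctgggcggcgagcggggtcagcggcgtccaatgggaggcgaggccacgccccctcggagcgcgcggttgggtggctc
Rrm1 (chr7:102441445-102441694, + strand, E2F in capitals): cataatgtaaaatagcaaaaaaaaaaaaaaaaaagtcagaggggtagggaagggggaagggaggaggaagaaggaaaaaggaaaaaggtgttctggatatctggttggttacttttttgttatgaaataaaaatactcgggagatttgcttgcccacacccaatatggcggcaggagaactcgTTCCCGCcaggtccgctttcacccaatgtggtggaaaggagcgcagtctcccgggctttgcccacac
Mcm6 (chr1:128359706-128359955, - strand, E2F in capitals): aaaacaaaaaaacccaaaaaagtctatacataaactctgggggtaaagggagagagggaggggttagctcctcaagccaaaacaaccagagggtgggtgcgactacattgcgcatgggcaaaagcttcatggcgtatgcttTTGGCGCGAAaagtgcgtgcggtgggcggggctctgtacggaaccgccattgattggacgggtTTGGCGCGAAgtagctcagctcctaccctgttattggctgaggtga
Cenpa also holds a CHR, after its start site and so outside the bases shown.

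Of the cell cycle genes, the centromere histone Cenpa and the ribonucleotide reductase subunit Rrm2 were higher in recruited nerve-associated than in interstitial macrophages of punched skin, and no other tested gene of the 31 passed limma in any of the 7 comparisons. That is 6.45% of the tested cell cycle genes in that comparison, where 7.53% of all tested genes passed, and the call of Rrm2 was lost in most alternative fits. Mki67, Pcna, Cenpa, Cdt1, Mcm3 and Stmn1 were read in all 15 libraries. In nerve-associated macrophages of intact skin, 7 of the 39 genes read in every IM library (17.9%, against 9.9% of all genes so read), among them Ccna2 and Cdk1, had no read in any library. Rrm1 had its 3 highest values in the nerve-associated macrophages resident in punched skin, but how many of all genes did so was not counted.

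Summed over the 17 S phase genes, the level in replicates 1, 2 and 3, the order used throughout, was 5793, 6768 and 6327 normalized counts for IM and 6453, 7789.9 and 7356 for injIM. The sum was 6452, 4471 and 4387 across the sNAM libraries, and the injsNAM libraries held 8260.1, 11943 and 10223 and the recsNAM libraries 7574, 12494 and 5719.9. Every injsNAM library was therefore above every IM, injIM and sNAM library, while the recsNAM libraries spread from below every IM library to the highest value of all 15 libraries. Rrm1 was a large part of the margin of injsNAM over injIM: without it the sums were 6361, 9789 and 7422 in injsNAM and 5918, 7005 and 6372 in injIM, and the groups overlapped, although injsNAM replicates 2 and 3 stayed above every injIM library.

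Summed over the 22 mitotic genes, the level was 3745, 6269 and 6001 for IM, 5029, 6854 and 5972 for injIM, and 4627, 7239.6 and 4955 for sNAM. The injsNAM libraries held 6589.6, 10923 and 7523, and the recsNAM libraries 6840.2, 11603 and 5480.2. Replicate 2 was the highest library of each of the 5 groups. The sum hides a change of makeup: Mki67 and Cenpa together made 69.6% to 87.3% of it in the sNAM libraries and 28.3% to 67.2% in the IM and injIM libraries. Without those 2 genes, the mitotic sum was 589.6, 2081 and 1508 in sNAM and 1229, 3859 and 2964 in IM. In sNAM replicate 2, Mki67 alone made 57.0% of the mitotic sum, and Mki67, Kif23 and Cenpa made 91.8%.

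**Figure D1:**
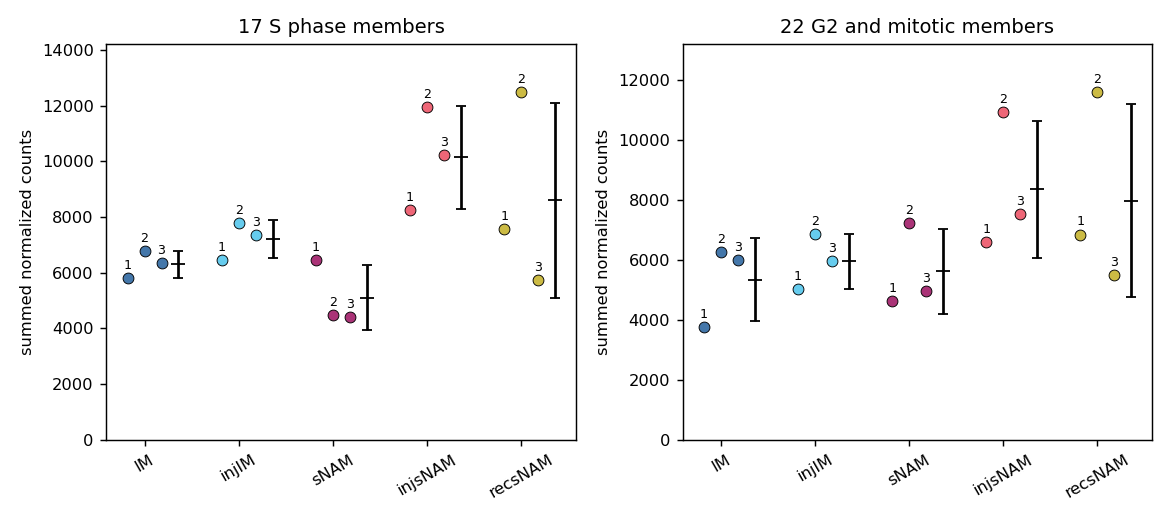
Summed normalized counts of the 17 S phase genes (left) and the 22 G2 and mitotic genes (right) in each library, with numbers naming the replicate and bars giving mean ± SD (n = 3 libraries). The injsNAM libraries lie above all IM, injIM and sNAM libraries in the S phase panel, and recsNAM replicate 2 is the highest library in both panels.

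Replicate 2 stood apart for these genes mainly in recsNAM and IM. In recsNAM, 24 of the 31 tested genes (77.4%) were highest in replicate 2, against 38.1% of all tested genes, and these included 10 of 12 S phase and 14 of 16 mitotic genes. In IM it was 22 of 31 (71.0%, against 40.6%). In injsNAM it was 15 of 31 (48.4%, against 33.1%) and in injIM 13 of 31 (41.9%, against 37.9%). In sNAM it was 7 of the 28 with a read (25.0%, against 30.2%). Cell cycle genes also varied more between libraries of a group than other genes did. Their median coefficient of variation was 36.2% in IM (16.4% over all tested genes), 31.4% in injIM (17%) and 51.3% in recsNAM (23.3%). It was 74.4% in injsNAM (50.4%) and 136% in sNAM (76.7%). The part of depth and of gene level in this spread was not tested.

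**Figure D2:**
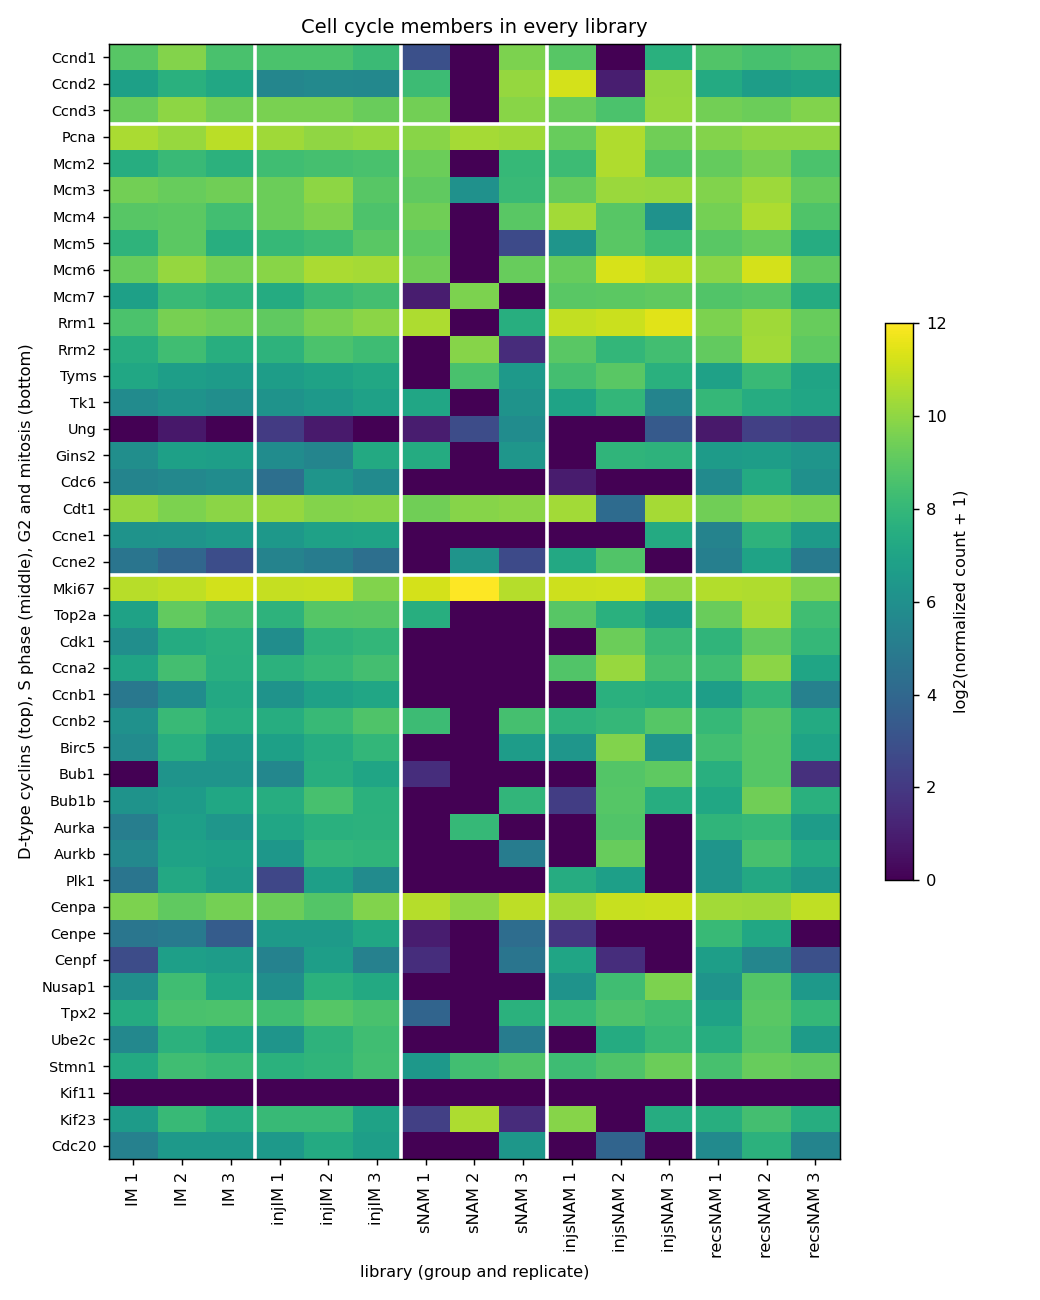
Level of all 42 genes in all 15 libraries as log2(normalized count + 1), with D-type cyclins at the top, S phase genes in the middle and mitotic genes at the bottom. Dark cells, which mark no or few reads, gather in the sNAM libraries and are most frequent in sNAM replicate 2. The entry named exactly Kif11 is at 0 throughout.

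The D-type cyclins activate CDK4 and CDK6. Ccnd3 was the steadiest of the 3, at 771 ± 200.2 in IM, 716 ± 96.0 in injIM and 729.6 ± 111 in recsNAM (mean ± SD, n = 3). The sNAM libraries held 697.5, 0 and 929 of it and the injsNAM libraries 612, 383 and 1135. Ccnd1 was 466, 883 and 373 in IM, 387, 392.5 and 286 in injIM and 432, 363 and 418.5 in recsNAM. Across the sNAM libraries it was 6.74, 0 and 810.4, and across the injsNAM libraries 475, 0 and 196, so that libraries with almost none stood beside libraries at the IM level. No D-type cyclin had a read in sNAM replicate 2.

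Ccnd2 was the D-type cyclin that differed most between groups. It was 114, 195 and 148 in IM and 45.2, 48.6 and 47.1 in injIM, and the 2 groups did not overlap. In recsNAM it was 159, 101 and 119, above every injIM library and within or near the IM range. Across the sNAM libraries it was 304, 0 and 1121, and the injsNAM libraries held 2411, 0.981 and 1111, so the 4 libraries with the highest values came from the same 2 groups as the 2 with the lowest. With limma none of these differences passed: injIM minus IM was -0.77 (SE 0.28, adjusted p = 0.11) on the log2(value + 100) scale used for every log2 difference here, and injsNAM minus injIM was 2.20 (SE 0.68, adjusted p = 0.161). Both depend on settings: with a pseudocount of 10 in place of 100, the first was -1.48 with limma (adjusted p = 0.0499), and without injsNAM replicate 2 the second was 3.57 (adjusted p = 0.00731). DESeq2 called the second too, at 4.64 on its own log2 scale (adjusted p = 0.0378).

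The 4 libraries high in Ccnd2 were those high in T and NK cell markers. The summed markers were 3029, 55.3 and 6331.5 for sNAM, 7459, 200 and 6799 for injsNAM, and 29.6 to 207 over the 9 other libraries. The sum was mostly Cd3e, Cd3g, Nkg7 and Cd3d, while Trac was at 0 in 14 of 15 libraries. Gzmb did not follow them in sNAM: it was 0 in every sNAM library and 128, 31.4 and 101 in IM. Across the injsNAM libraries Gzmb was 159, 0 and 46.2. In injsNAM Cd3e was 2870.1, 78.4 and 1641. The part of these cells' RNA in the Ccnd2 values was not tested.

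**Figure D3:**
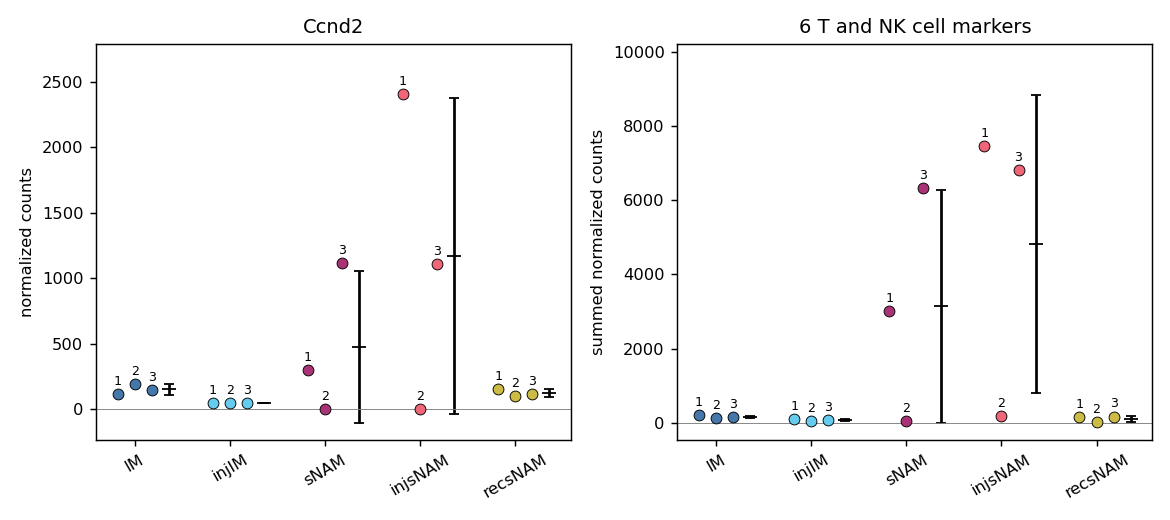
Normalized counts of Ccnd2 (left) and of 6 summed T and NK cell markers (right) in each library, with numbers naming the replicate and bars giving mean ± SD (n = 3 libraries). Replicates 1 and 3 of sNAM and injsNAM are the 4 highest libraries in both panels, and replicate 2 of both groups is near 0 for Ccnd2.

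Among the genes that license replication, Cdt1, which loads the MCM helicase, overlapped between IM, injIM and recsNAM: 1117, 811 and 980.2 in IM, 1096.5, 882 and 915 in injIM, and 668, 884.5 and 763 in recsNAM. Levels were 675, 897 and 984 across the sNAM libraries, and 1318, 17.6 and 1334 across the injsNAM libraries, where replicate 2 stood far below the others. Its partner Cdc6 was 42.2 to 57.1 in IM, without a read in all 3 sNAM libraries, and 0.880, 0 and 0 in injsNAM. Gins2, a part of the active helicase, ranged from 0 to 228.5. The E-type cyclins, which act at the start of S phase, stayed low: Ccne1 was at most 214.5 and Ccne2 at most 427.5.

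The 6 MCM genes encode the ring-shaped helicase that opens DNA. Mcm6, the highest of them, was 589.5, 1120.1 and 719 in IM, 943, 1434 and 1325 in injIM and 979.5, 2444 and 531 in recsNAM. The sNAM libraries held 675, 0 and 594 and the injsNAM libraries 602, 2454 and 1933. Both nerve-associated groups of punched skin thus spanned the whole injIM range. Mcm3 was 698, 601 and 680.3 in IM, 636.5, 1017 and 472 in injIM, and 535, 67.0 and 283 for sNAM. The injsNAM libraries held 576, 1173 and 1145 and the recsNAM libraries 857, 1221 and 581. Every sNAM library was below every IM library for Mcm3, yet the difference of -1.14 did not pass (SE 0.70, adjusted p = 0.468 with limma). Mcm2 was 176.5, 281 and 212 in IM and 322, 348 and 382 in injIM without overlap, a difference of 0.49 (SE 0.22, adjusted p = 0.199). In sNAM replicate 2, 4 of the 6 MCM genes had no read, and in replicate 3 it was 1 of 6.

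Pcna, the clamp that holds DNA polymerase on its template, was the highest S phase gene in IM, at 1439.9, 1147 and 1733. The injIM libraries held 1274, 1026 and 1127 and the recsNAM libraries 891.5, 1035 and 1044. The sNAM libraries held 934, 1339 and 1275 and the injsNAM libraries 602, 1532.5 and 673. The groups overlapped, except that every recsNAM library was below every IM library. All its limma differences were small, the largest being -0.40 for injsNAM minus sNAM (SE 0.61, adjusted p = 0.955). Pcna has named related copies in the annotation, so its reads may be shared with them.

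Rrm1 and Rrm2 encode the large and small subunits of ribonucleotide reductase, which makes the deoxynucleotides for DNA. Rrm1 was 392, 758 and 666.5 in IM, 535.5, 785 and 985 in injIM, and 807, 1267 and 600.3 in recsNAM. In injsNAM it was 1899, 2153 and 2801, above all 12 libraries of the other groups. The share of all tested genes with this pattern was not counted. In sNAM Rrm1 was 1483, 0 and 183. Against injIM the injsNAM difference was 1.47 (SE 0.62, adjusted p = 0.333), and against sNAM 2.73 (SE 0.98, adjusted p = 0.59), so with limma neither passed. With a pooled spread the second passed (adjusted p = 0.039).

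Rrm2 was the only S phase gene to pass the test in any of the 7 comparisons. It was 567, 1302.5 and 525.5 in recsNAM and 216, 384 and 315 in injIM, without overlap and with replicate 2 the highest library of both groups. The ratio of means was 2.62 and the log2 difference 1.07 (SE 0.32, adjusted p = 0.0456 with limma). That call rested on single libraries: without recsNAM replicate 2 the difference was 0.69 (adjusted p = 0.277), without recsNAM replicate 1 it was 1.23 (adjusted p = 0.12) and without injIM replicate 1 it was 0.90 (adjusted p = 0.232). Over all settings the adjusted p reached 1. Elsewhere, Rrm2 was 178, 325 and 185 in IM, 0, 923 and 1.85 across the sNAM libraries, and 488.5, 246 and 326 across the injsNAM libraries. The thymidine kinase Tk1 did not pass: it was 256, 173 and 136 in recsNAM and 70.6, 89.8 and 117 in injIM (difference 0.57, SE 0.22, adjusted p = 0.144). Ung, which removes uracil from DNA, was at most 55.5 and was not tested with limma.

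Cenpa, the histone H3 variant that marks the centromere, was the mitotic gene that passed (chromosome 5, 30666777 to 30674830, + strand). It was 1309.6, 1278 and 1860.2 in recsNAM and 627, 444 and 844 in injIM, so that the lowest recsNAM library lay above the highest injIM library. The ratio of means was 2.32 and the log2 difference 1.12 (SE 0.23, adjusted p = 0.00403 with limma). Leaving out any 1 of the 6 libraries gave 0.91 to 1.31, with adjusted p-values up to 0.0331. The call was lost with a pooled spread (adjusted p = 0.279) and with edgeR on all libraries (adjusted p = 0.399), and over all settings the adjusted p ran up to that value. Cenpa was 809.9, 538.5 and 713 in IM, 1637, 1030.5 and 1808 across the sNAM libraries, and 1335, 2039.5 and 2124 across the injsNAM libraries. All 9 libraries of the 3 nerve-associated groups were therefore above all 6 interstitial libraries. The share of all tested genes that split the libraries this way was not counted. The sNAM minus IM difference was 1.00 (SE 0.59, adjusted p = 0.451) and the injsNAM minus injIM difference 1.4 (SE 0.45, adjusted p = 0.192), and with limma neither passed. DESeq2 called both, at 1.12 (adjusted p = 0.0143) and 1.52 (adjusted p = 0.000447) on its own log2 scale.

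The dendritic cell genes Ccr7 and Flt3 split the libraries the same way, and Zbtb46 and Xcr1 did not. The sum of the 4 was 549 to 1346 over the IM and injIM libraries, and 22118 to 43739 over the sNAM libraries. It was 4821 to 13345 for injsNAM and 4003.5 to 7285.5 for recsNAM. Ccr7 made up most of it in the nerve-associated groups. Zbtb46 was 208 to 417.5 in IM and 81.4 to 350.2 in recsNAM, and Xcr1 was 226 to 516 in IM and 0 to 171.5 in sNAM. The part of dendritic cell RNA in the Cenpa values was not tested.

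**Figure D4:**
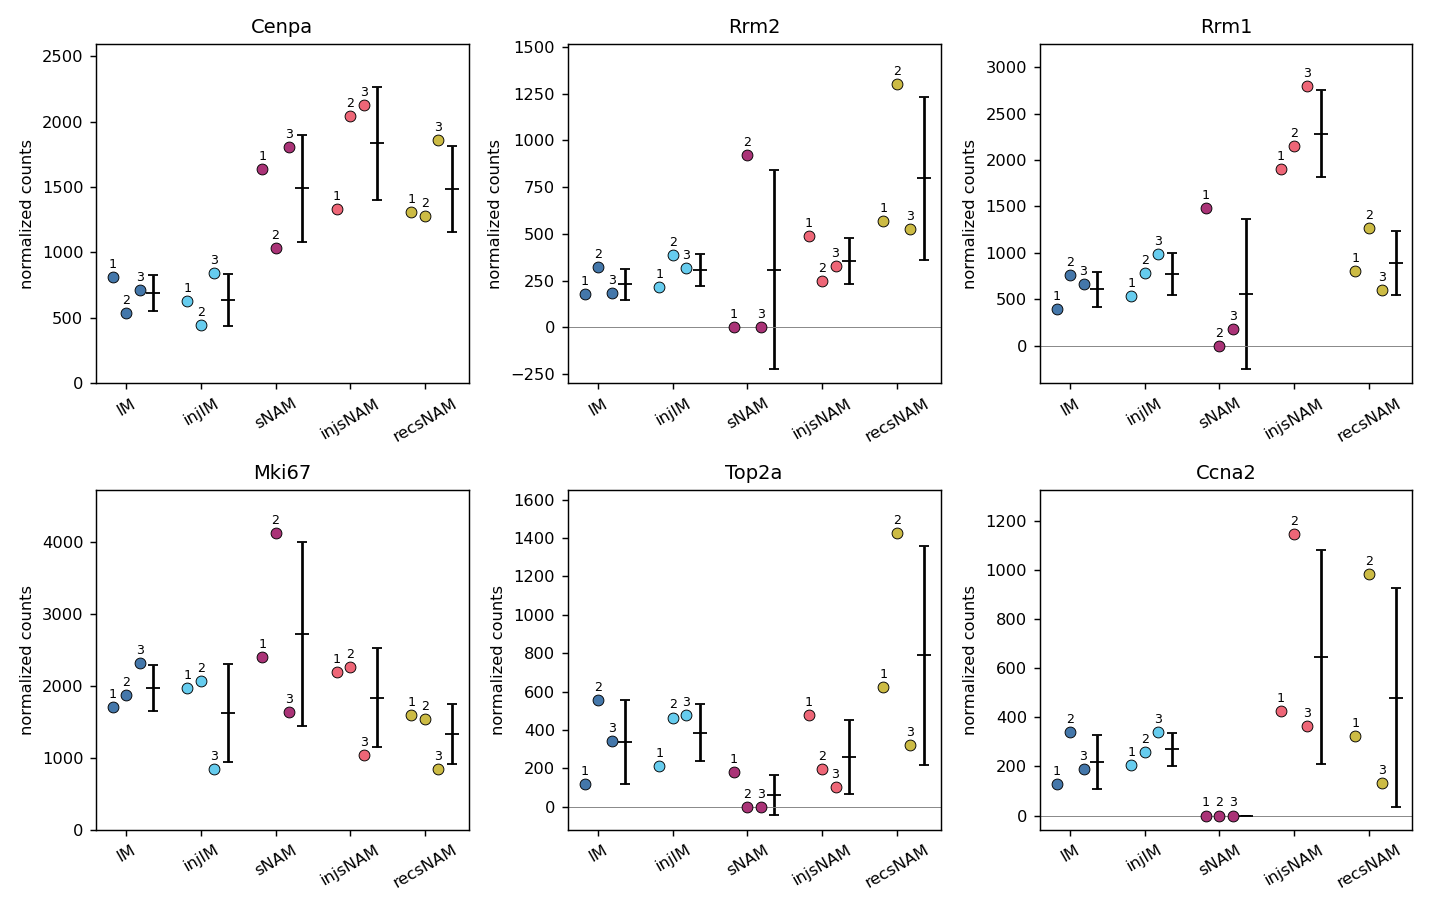
Normalized counts of Cenpa, Rrm2, Rrm1, Mki67, Top2a and Ccna2 in each library, with numbers naming the replicate and bars giving mean ± SD (n = 3 libraries). Cenpa is higher in all 9 nerve-associated libraries than in all 6 interstitial ones, Rrm1 is highest in the 3 injsNAM libraries, and Ccna2 is at 0 in the 3 sNAM libraries.

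Mki67, which encodes the Ki-67 coat protein of mitotic chromosomes and is widely used to mark cycling cells, was the highest of all 42 genes on average. It was 1706, 1871 and 2323.5 in IM, 1965.5, 2068 and 843 in injIM, and 1588, 1540.4 and 842 in recsNAM. The sNAM libraries held 2401, 4128 and 1639 and the injsNAM libraries 2192, 2267 and 1041. The groups overlapped except that the recsNAM libraries all lay below the IM and sNAM libraries. None of its differences passed, recsNAM minus injIM being -0.23 (SE 0.30, adjusted p = 0.762 with limma).

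Top2a, the topoisomerase that untangles chromosomes before they separate, took a different course. It was 119, 557.5 and 341 in IM, 215, 465 and 478 in injIM, and 624, 1426 and 322 in recsNAM. In intact skin the sNAM libraries held 183, 0 and 0, and in punched skin the injsNAM libraries held 476, 197 and 105. The library with the most Mki67, sNAM replicate 2, had no read of Top2a. Stmn1, which destabilizes microtubules, was 158, 319 and 271 in IM, 204, 231 and 327 in injIM, and 363, 596 and 536.5 in recsNAM. In intact skin the sNAM libraries held 82.9, 329 and 420 of it and the injsNAM libraries 311, 415 and 632. Its recsNAM minus injIM difference of 0.75 did not pass (SE 0.25, adjusted p = 0.0819), although the groups did not overlap, and without injIM replicate 3 it was 0.90 (adjusted p = 0.0264). With limma and the replicate block the difference did pass (adjusted p = 0.0104). Stmn1 overlaps another gene's exons and has named related copies, so its reads may be shared.

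Several mitotic regulators had no read in sNAM. Ccna2, the cyclin of late S phase and G2, was 128, 339 and 188 in IM, 207, 259.8 and 342 in injIM, and 325, 985 and 134 in recsNAM. It was 0 in the 3 sNAM libraries and 427, 1149 and 366.5 across the injsNAM libraries. Cdk1, the kinase that drives mitosis, was 60.8, 168 and 198 in IM, 59.1, 220.1 and 249 in injIM, and 234, 555 and 255 in recsNAM. It too was 0 in the 3 sNAM libraries, and 0, 636 and 293 across the injsNAM libraries. Of the 39 genes read in every IM library, 7 (17.9%) had no read in any sNAM library, against 9.9% of all genes read in every IM library. The other 5 were Nusap1, which bundles spindle microtubules, the mitotic kinase Plk1, Ccnb1, the cyclin partner of Cdk1, and the S phase genes Ccne1 and Cdc6. Among genes with an IM mean of 50 to 250, a range chosen after the values were seen, it was 6 of 23 (26.1%), against 8.54% of all genes in that range.

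Taking 3 reads per library as the floor for a count of 0 (5.72 normalized counts on average over the sNAM libraries), IM was at least 38.2-fold higher than sNAM for Ccna2, 30.1-fold for Nusap1, 24.9-fold for Cdk1, 15.9-fold for Plk1, 13.6-fold for Ccne1, 13.5-fold for Ccnb1 and 8.59-fold for Cdc6. Of these, 2 moved by over 1.5 times with 1 IM library left out: the bound for Nusap1 was 17.3-fold without IM replicate 2, and that for Ccnb1 was 7.21-fold without IM replicate 3. These bounds cover counting error only, since the reads were amplified by PCR and carry no molecular identifiers. The genes were picked for having no read in sNAM, so high folds follow from the choice. With limma, sNAM minus IM was -1.62 for Ccna2 (SE 0.95, adjusted p = 0.453) and -1.33 for Nusap1 (adjusted p = 0.601). For Cdk1 it was -1.23 (adjusted p = 0.584), and none of these passed. The other genes given a bound were below the minimum for testing with limma. On the recovered reads, edgeR called Ccna2, Nusap1 and Cdc6 lower in sNAM, with 2.68% of all genes called. DESeq2 called all 7 genes given a bound lower, with 14% of all genes called. In injsNAM, Ccna2 and Nusap1 had reads in all 3 libraries, Cdk1, Ccnb1 and Plk1 in 2, and Ccne1 and Cdc6 in 1. Fewer reads in sNAM replicates 2 and 3, and fewer genes read in all 3 sNAM libraries, went with these zeros, and their part in them was not tested. Of the 31 tested cell cycle genes, sNAM replicates 1, 2 and 3 lacked a read for 10, 20 and 7 (32.3%, 64.5% and 22.6%), a larger share than over all genes in each library. In injsNAM the shares were 16.1%, 6.45% and 6.45%, against 4.26%, 6.77% and 8.79% of all tested genes. The genes compared were not matched for level, and the part of level was not tested.

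**Figure D5:**
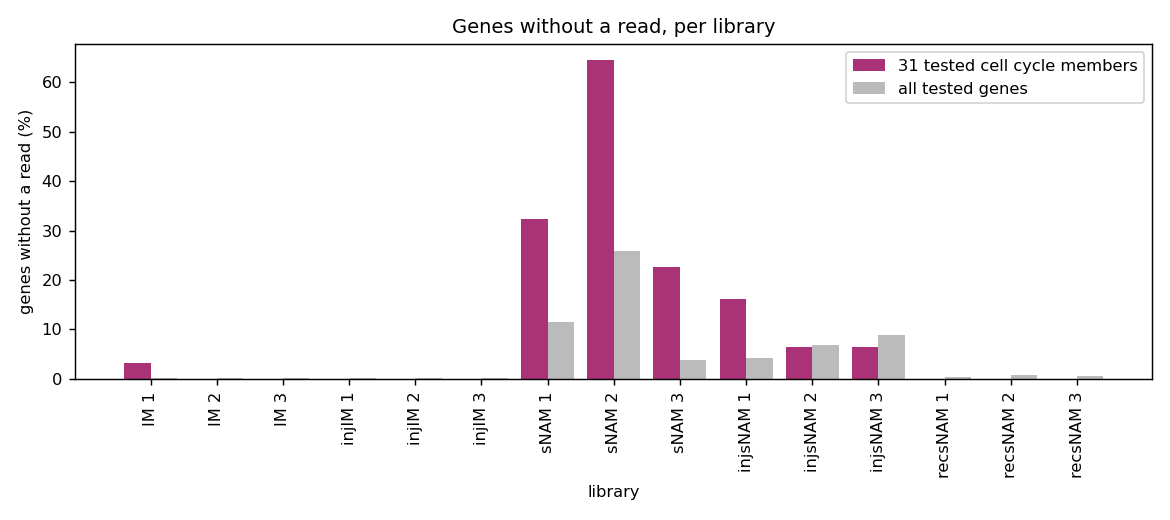
Share of the 31 tested cell cycle genes and of all 8656 tested genes without a single read, in percent, for each library. In the 3 sNAM libraries the share is 32.3%, 64.5% and 22.6% for the cell cycle genes against 11.6%, 25.8% and 3.89% for all genes.

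The spindle and checkpoint genes of the interstitial cells mostly overlapped between the punched and the intact side. Aurka, a kinase of the spindle poles, was 33.8, 110.3 and 79.5 in IM and 137, 193 and 212 in injIM, without overlap. Its difference of 0.70 did not pass (SE 0.24, adjusted p = 0.0862 with limma), and without IM replicate 2 it was 0.85 (adjusted p = 0.0394). Bub1b, of the spindle checkpoint, was 70.1, 96.4 and 143.5 in IM and 178, 371 and 202 in injIM, also without overlap, and its difference of 0.76 did not pass (SE 0.28, adjusted p = 0.118). Kif23, a motor of cell separation, was 1490.4 in sNAM replicate 2 and at most 3.85 in the other sNAM libraries. That replicate also held the most Mki67 and the most mast cell marker RNA of all libraries, and the part of other cells in these values was not tested. The 3 remaining MCM genes and Tyms, which makes thymidylate, gave 95.1 to 828 over the IM and injIM libraries and 117 to 1470.2 over the recsNAM libraries. The remaining mitotic genes were the B-type cyclin Ccnb2, the chromosomal passengers Birc5 and Aurkb, the checkpoint kinase Bub1, the centromere proteins Cenpe and Cenpf, the spindle factor Tpx2, and Ube2c and Cdc20, which act in the degradation that ends mitosis. They gave 0 to 455 over the IM and injIM libraries and 0 to 494 over the recsNAM libraries, with a highest value of 838 (Birc5, injsNAM replicate 2). Of these 13 genes, 10 were tested and none passed limma in any comparison. The entry named exactly Kif11, the motor that pushes spindle poles apart, was listed at 0 in every library. The deposited data hold 1 further entry with this name and a suffix, which was not used. The 0 therefore does not show that the gene was silent.

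The counts of calls were as follows. For the punch in interstitial cells (injIM minus IM), 0 of 31 cell cycle genes passed limma at an adjusted p of 0.05, where 8.18% of all tested genes did, and 4 had an unadjusted p under 0.05: Mcm2, Bub1b and Aurka higher and Ccnd2 lower. The share of all tested genes with an unadjusted p under 0.05 was not counted, here or in the comparisons below, so these counts have no background beside them. In edgeR (0.0219% of all genes called) and DESeq2 (0.396%) it was also 0. The median log2 difference was 0.26 for the S phase genes and 0.26 for the mitotic genes, against 0.03 over all tested genes. In 3 of the 31 (9.68%) every injIM library was above every IM library, against 13.5% of all tested genes, and in 1 (3.23%, Ccnd2) every one was below, against 11.4%. Mast cell markers were also lower in every injIM library than in every IM library, and their part in these differences was not tested.

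For recruited nerve-associated against interstitial cells of punched skin (recsNAM minus injIM), 2 of 31 genes passed (6.45%), both higher, where 7.53% of all tested genes passed in either direction and 3.19% were higher. The share in either direction was thus near the background. On all libraries edgeR called 0 cell cycle genes (0.0731% of all genes called) and DESeq2 1, Cenpa (1.7% of all). Medians were 0.27 for S phase, 0.17 for mitotic and -0.02 for all tested genes. In 6 of the 31 (19.4%), every recsNAM library was above every injIM library, against 11.4% of all tested genes: Stmn1, Cenpa, Mcm2, Ccnd2, Tk1 and Rrm2. In 0 was every one below, against 12.5%.

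In the comparisons with resident nerve-associated cells, limma called no cell cycle gene. For sNAM minus IM, 1.05% of all tested genes passed, no cell cycle gene had an unadjusted p under 0.05, and the medians were -0.54 for S phase, -0.61 for mitotic and -0.26 for all genes. There edgeR, on the recovered reads, called 3 lower in sNAM (Nusap1, Ccna2 and Cdc6, with 2.68% of all genes called), and DESeq2 called 9, 7 of them lower and Cenpa and Ung higher (14% of all). For injsNAM minus sNAM, 0% of all tested genes passed, 2 cell cycle genes had an unadjusted p under 0.05 (Rrm1 and Ccna2), and the medians were 1.03, 0.88 and 0.14. There edgeR called 2 (Ccna2 and Nusap1, with 0.812% of all) and DESeq2 8 (13.5% of all). The comparisons share the sNAM libraries, so their medians are not independent.

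For injsNAM minus injIM, 0.485% of all tested genes passed in limma, and 3 cell cycle genes had an unadjusted p under 0.05 (Rrm1, Cenpa and Ccnd2, all higher). There edgeR called 0 cell cycle genes (0.263% of all). DESeq2 called 4, with Cenpa and Ccnd2 higher and Cdc6 and Cenpe lower (9.33% of all). The medians were 0.22, 0.13 and -0.09. For recsNAM minus injsNAM, 0% of all tested genes passed, Ccnd2 alone had an unadjusted p under 0.05, edgeR called 0 and DESeq2 2 (7.09% of all), and the medians were 0.04, 0.12 and 0.07. The difference between the responses of both resident populations to the punch, tested as an interaction, passed for 0% of all tested genes. Rrm1 alone had an unadjusted p under 0.05 there (adjusted p = 0.877 with limma), edgeR called 1 cell cycle gene (0.0512% of all genes) and DESeq2 6 (6.46% of all).

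The wider cycle machinery was read from lists of further genes, to be set against the 8.18% of all tested genes called in injIM minus IM and the 7.53% in recsNAM minus injIM. Of 23 other S phase genes tested, limma called 1 in injIM minus IM: Chaf1b, which deposits histones on new DNA, was 127, 100.1 and 192 in IM and 287, 365 and 380.4 in injIM and rose by 0.90 (SE 0.26, adjusted p = 0.0366). Of 29 other mitotic genes, 1 was called there: Espl1, the protease that frees sister chromatids, was 199, 95.7 and 111.5 in IM and 318, 483 and 314 in injIM and rose by 1.01 (SE 0.24, adjusted p = 0.0118). In both, the libraries did not overlap. Each call was lost in edgeR and DESeq2, and that of Chaf1b also when any 1 library was left out. Of 25 kinases and transcription factors, Ccng2, a cyclin linked to cell cycle arrest, rose by 1.22 (SE 0.20, adjusted p = 0.000604) and Myc, a growth-promoting transcription factor, fell by 0.78 (SE 0.22, adjusted p = 0.0293). Of 12 anti-proliferative and p53 target genes 1 rose and 3 fell, among them Btg2, which restrains division and fell by 0.79 (SE 0.16, adjusted p = 0.00349). The calls of Ccng2, Myc and Btg2 were lost in edgeR and DESeq2 on all libraries too (adjusted p of 0.6 to 1), and Myc lost its call in 5 of the 6 fits with 1 library left out.

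In recsNAM minus injIM, 0 of 23 other S phase genes passed limma, and among 29 mitotic genes 1 rose and 1 fell. The one that rose was Lmnb1, of the nuclear lamina, at 1037, 856 and 1150.0 in recsNAM and 362, 407 and 507 in injIM (1.08, SE 0.29, adjusted p = 0.0235). Of 25 kinases and transcription factors 2 fell: Wee1, which holds Cdk1 inactive, was 166, 461 and 111 in recsNAM and 521, 906.5 and 533 in injIM (-1.22, SE 0.32, adjusted p = 0.0228), and Myc fell by 1.02 (SE 0.27, adjusted p = 0.0224). Of 12 anti-proliferative and p53 target genes 1 rose, Btg2 (0.89, SE 0.20, adjusted p = 0.00708), and 4 fell, with Plk2, a stress-induced kinase, falling by 1.49 (SE 0.23, adjusted p = 0.000307) from 3920.3, 5166 and 2846.5 in injIM to 1578, 1425 and 1003 in recsNAM. Maf, a factor that restrains macrophage self-renewal, fell by 1.08 (SE 0.29, adjusted p = 0.0269). With 1 library left out, Maf was -1.51 to -0.68 (adjusted p up to 0.204), Myc -1.39 to -0.61 (up to 0.323), Wee1 -1.63 to -0.93 (up to 0.189) and Lmnb1 1.00 to 1.19 (up to 0.167), so each of these 4 calls was lost without 1 of several libraries. All 4, and Plk2, were lost in edgeR on all libraries, and Maf, Myc and Lmnb1 in DESeq2. Cdkn1a, the p21 inhibitor of cyclin-dependent kinases, was 3144 ± 387 in injIM, 4163.5 ± 328 in IM and 3926 ± 1535 in recsNAM (n = 3), and none of its limma differences passed. Cdkn1b, the p27 inhibitor, was below the minimum for testing, at 2.94 to 140.9. In the 5 comparisons that include sNAM or injsNAM libraries, limma called none of these further genes.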

How the data were processed

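RNA-seq was made from 250 pg of sorted-cell RNA per library with the SMARTer v4 kit, 13 PCR cycles and Nextera XT, per the labels' protocols. Per the submitters' processing notes, the tools were DESeq2 1.24.0 in R 3.6.1, STAR 2.7.2b, cutadapt and bcl2fastq 2.18, and the build was mm10. How reads were counted, by which gene models and on which strand is not given in the sources used here. Each deposited value is a signal, made by the authors from a gene's read count by division with a single factor for the whole library. In each library 100% of the values were whole multiples of its smallest value to within 0.01, and dividing by that value returned whole reads, which gave the depths and the input for edgeR 4.0.16 and DESeq2 1.42.0. No value column was left unused.

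Tests used limma 3.58.1 in R 4.3.3: its trend method on log2(value + 100), with robust empirical Bayes moderation, for genes with a mean of at least 100, with 1 mean for each group and array weights of 3.43 for IM, 3.21 for injIM, 1.67 for recsNAM, 0.311 for injsNAM and 0.175 for sNAM, so that the sNAM and injsNAM libraries, which varied most, counted least. P-values were adjusted over all 8656 tested genes by the Benjamini-Hochberg method within each of 7 comparisons, and calls were made at an adjusted p under 0.05. Differences on this scale understate the change of low genes. The labels number replicates 1 to 3 in each group. In none of the comparisons did all same-numbered pairs deviate together (correlations of deviations over 0.1 in at most 2 of 3 pairs), so the numbers were not taken to pair libraries. Yet 14 of 15 libraries correlated best with libraries of their own number, and the recsNAM and injIM pairs ran from 0.09 to 0.39. Whether the numbers pair libraries is therefore not settled, and fits with a replicate block are given at the end.

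The 42 genes, the further gene lists, the markers, the filter, the weights and the pseudocount were chosen with earlier results of these data known. Values in every library are printed for each member called in any comparison, for Mki67, Top2a, Pcna and the D-type cyclins, and for the 5 members of each phase with the highest mean. Other members given by library were chosen after their values were seen. Of the further cycle genes, at most the 5 called genes with the largest difference per comparison are named, plus Cdkn1a and Cdkn1b. Btg2 in recsNAM minus injIM is named beyond this rule. In GENCODE M21, 14 of the 42 genes overlap an exon of another gene (Mcm7, Tk1, Gins2, Ccne2, Top2a, Ccna2, Plk1, Nusap1, Ube2c, Stmn1, Cdc20 and the 3 D-type cyclins) and 6 have named related copies (Pcna, Tyms, Ccnb1, Ccnb2, Stmn1 and Ccnd3), so their counts are uncertain. Alternatives were another pseudocount, no filter, a pooled spread, edgeR, DESeq2, scaling to library totals, the replicate block, each library left out, and, chosen after seeing the data, limma and edgeR fits on the IM, injIM and recsNAM libraries alone and lower bounds with each IM library left out.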

Additional observations from a re-analysis of the deposited data

How the results depend on the processing

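Counts are of the 42 cell cycle genes called at an adjusted p under 0.05, against 2 in recsNAM minus injIM and 0 in the 6 other comparisons with limma. In recsNAM minus injIM the count was 1 with a pseudocount of 10, without a filter, with DESeq2, with scaling to library totals, and in the limma and edgeR fits on IM, injIM and recsNAM libraries chosen after seeing the data. It was 0 with a pooled spread and with edgeR on all libraries, 4 with the replicate block (Cenpa, Rrm2, Stmn1 and Cdk1), and 1 to 3 with 1 library left out. In injIM minus IM it was 1 with a pseudocount of 10 (Ccnd2) and 0 to 1 with 1 library left out. DESeq2 gave 9 in sNAM minus IM, 8 in injsNAM minus sNAM, 4 in injsNAM minus injIM, 2 in recsNAM minus injsNAM and 6 in the interaction. edgeR gave 3 in sNAM minus IM, 2 in injsNAM minus sNAM and 1 in the interaction, and a pooled spread gave 2 in injsNAM minus sNAM (Ccna2 and Rrm1). With 1 library left out the count was 0 to 1 in injsNAM minus injIM and in recsNAM minus injsNAM, each time 1 without injsNAM replicate 2 (Ccnd2). Except where a value shows it, the cause of these changes was not tested.

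Over all genes, 708 passed in injIM minus IM and 652 in recsNAM minus injIM, against 315 and 362 without a filter, 18 and 22 with a pooled spread, 3 and 10 with edgeR, and 73 and 235 with DESeq2. On the IM, injIM and recsNAM libraries alone, limma called 313 and edgeR 144 in injIM minus IM. Scaling to library totals moved the genes called higher in injIM minus IM from 359 of 708 to 451 of 719. In sNAM minus IM 91 passed, against 0 with a pseudocount of 10, 727 with a pooled spread, 367 with edgeR and 1944 with DESeq2. In injsNAM minus sNAM 0 passed, against 363, 111 and 1876, and 4 without a filter. In injsNAM minus injIM 42 passed, against 102 without a filter, 69 with a pooled spread and 1334 with DESeq2. In recsNAM minus injsNAM and in the interaction 0 passed, against 12 and 6 without a filter, 2 and 4 with a pooled spread, and 1046 and 867 with DESeq2, and edgeR called 7 in the interaction. Leaving out 1 library gave 399 to 826 genes in injIM minus IM, 272 to 899 in recsNAM minus injIM, 0 to 107 in sNAM minus IM, 2 to 75 in injsNAM minus injIM and 0 to 42 in recsNAM minus injsNAM.

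Alternative values were collected for 12 of the differences named as passing, and not for Btg2 in recsNAM minus injIM. Of these values, 89 lay on the same side of the threshold and 89 lost the call, and none changed direction. The replicate block called 1211 genes in place of 652 in recsNAM minus injIM and 70 in place of 42 in injsNAM minus injIM, and 14 of 15 libraries correlated best with libraries of their own number, a hint from the data and not from the design. In sNAM replicate 2, 1 read was worth 2.91 normalized counts, against 0.731 to 0.864 over the IM libraries, which limits what a count of 0 shows there. In sNAM replicate 1 it was 0.963, and that library still lacked a read for 32.3% of the tested cell cycle genes.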
